A study of Mus musculus with 6 samples.

Results

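Snora17 and Snora43 are box H/ACA small nucleolar RNAs (snoRNAs) that lie in Snhg7, a host gene for a long non-coding RNA, and Snora16a and Snora44 lie in another such host, Snhg12. These 4 snoRNAs were followed through the differentiation of mouse C2C12 cells, to compare the neighbours within a host gene with each other and across the hosts. They were found by matching the transcript accessions of the probes, without versions, to RefSeq symbols, and each matched a single probe (NR_028571 for Snora17, NR_028572 for Snora43, NR_029412 for Snora16a and NR_034050 for Snora44). They are 4 of the 67 measured snoRNAs on a custom NanoString nCounter panel of 72 probes, which counts colour-coded probes hybridised to total RNA without amplification.

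The samples compared were 3 samples of C2C12 cells differentiated into myotubes for 7 days, and 3 samples of control, undifferentiated C2C12 myoblasts. C2C12 is an established mouse myoblast line whose cells leave the cell cycle and fuse into multinucleated myotubes, and cultures after differentiation also hold cells that have not fused. The labels give the cell type of all 6 samples as myoblasts, so the state was taken from titles and treatment. The panel carried none of the 10 markers of myotubes, myoblasts, cycling cells or fibroblasts that were looked for, and the labelled state could not be checked on it. The labels do not tell separate cultures from repeat samples of a culture, so each p-value rests on a spread that may be technical.

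Box H/ACA snoRNAs form particles with dyskerin, NOP10, NHP2 and GAR1, and most of them pair with ribosomal RNA to place the conversion of a chosen uridine to pseudouridine. In vertebrates they are usually cut out of introns of a host transcript, so snoRNAs of the same host start from the same precursor, and their final levels also depend on splicing, trimming, assembly with protein and decay. Snhg7 and Snhg12 belong to a class of hosts whose spliced RNA encodes no protein. The human counterparts of Snora17 and Snora43 are regarded as guides of 28S ribosomal RNA, of the large subunit, and that of Snora44 as a guide of 18S ribosomal RNA, of the small subunit. These targets are background and were not checked here. In the direction of transcription, the RefSeq annotation places Snora17 before Snora43 in Snhg7 and Snora16a before Snora44 in Snhg12.

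The start regions of both host genes are shown because each holds the annotated start of the host transcript of a pair. Their activity was not measured. The sequences are those of RefSeq on GRCm38.p6, 250 bases before the annotated start and 50 bases from it on, 5′ to 3′ on the strand of the host. That of Snhg7 lies at chr2:26640195-26640494 on the minus strand, and that of Snhg12 at chr4:132308428-132308727 on the plus strand. Capitals mark matches of CANNTG, the E-box core that myogenic factors can bind, matches of TATAAA, and the unbroken run of C and T that begins at the annotated start.
Snhg7: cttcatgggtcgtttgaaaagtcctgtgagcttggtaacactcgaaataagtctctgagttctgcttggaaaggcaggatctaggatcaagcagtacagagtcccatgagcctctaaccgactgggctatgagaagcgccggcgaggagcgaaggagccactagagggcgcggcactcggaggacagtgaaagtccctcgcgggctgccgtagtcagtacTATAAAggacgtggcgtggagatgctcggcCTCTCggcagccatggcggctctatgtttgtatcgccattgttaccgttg
Snhg12: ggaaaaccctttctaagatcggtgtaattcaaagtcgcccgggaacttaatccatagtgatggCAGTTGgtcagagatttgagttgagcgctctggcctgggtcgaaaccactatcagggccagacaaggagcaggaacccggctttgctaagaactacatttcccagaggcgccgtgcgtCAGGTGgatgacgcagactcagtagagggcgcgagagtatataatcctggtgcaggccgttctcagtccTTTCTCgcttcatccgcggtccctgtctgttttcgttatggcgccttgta

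Transcripts of many snoRNA host genes begin with a run of pyrimidines, the terminal oligopyrimidine feature that links translation to growth signals. The run from the annotated start was 5 bases long in Snhg7, where it began with C, and 6 bases long in Snhg12, where it began with T. The search took either base as the first. Pyrimidines also stood directly before the annotated start in both, so these lengths depend on where the start is placed. Whether either run acts as this feature was not tested. Runs of at least 5 bases and of at least 6 bases were found at 4.43% and 2.93% of the 32544 distinct start regions searched. CANNTG, which reads the same on both strands, had 2 matches in Snhg12, at 187 and 69 bases before the start, and no match in this window of Snhg7. It was present in 72.3% of all start regions, and 39.6% of them had at least 2 matches. TATAAA, searched on both strands, matched once in Snhg7, 30 bases before the start, and not in Snhg12. A match at any position was found in 13.6% of all start regions. Only these exact letters were searched, and the similar stretch tatataa before the start of Snhg12 is not marked. No marked motifs overlapped. The motifs were chosen after the sequences were seen, and a match is a description of letters, not of a bound site.

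The deposited values are normalized probe counts, which are whole multiples of a single step per sample. Dividing by that step gave implied totals of 1573930 to 1627062 counts over the panel in myotubes and 1097844 to 1570369 in myoblasts, and implied counts of 3276 or more for each of the 4 snoRNAs in every sample. The counting error of a log2 level was at most 0.0252 for these snoRNAs, and covers counting error only. Levels of different snoRNAs also reflect how well each probe hybridises, so a ratio of 2 snoRNAs is read here only for how it differs between states. The samples hold bulk RNA, in which fewer cells of a type and less RNA per cell cannot be told apart.

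Within Snhg7 the neighbours moved in opposite directions. Snora17 was higher and Snora43 lower in myotubes, while within Snhg12 neither Snora16a nor Snora44 passed the test. Of the 4 snoRNAs, 1 was called higher and 1 lower by limma, at an adjusted p of 0.05 or less (Benjamini-Hochberg, over all 67 measured snoRNAs). On the whole panel 55.2% of snoRNAs were called, 35.8% higher and 19.4% lower, so that 2 calls among 4 lie near the background. The median log2 change of the 4 was 0.06, beside 0.14 over the panel.

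Snora17 had normalized counts of 41719.45, 41608.07 and 41808.04 in myotube samples 1 to 3, against 25906.73, 33277.27 and 33101.95 in myoblast samples 1 to 3. The myotube samples were nearly identical and all lay above every myoblast sample, and myoblast sample 1 was the lowest. The means were 41712 ± 100.2 in myotubes and 30762 ± 4206 in myoblasts (SD, n = 3 each). Snora17 was 1.37-fold higher in myotubes (log2 change 0.45 ± 0.13 SE, limma adjusted p = 0.0235). The SD of its log2 level between myotube samples was 0.003, below its counting error of 0.0073 to 0.0075 and below the panel's median SD of 0.149 in myotubes. The call ended without myotube sample 1 or myotube sample 2 (adjusted p of 0.0831 and 0.0814), though the change stayed at 0.45 in both. With equal panel totals the log2 change was 0.27 and still passed (adjusted p = 0.0479), and it missed with sample medians subtracted (0.39, adjusted p = 0.0807) or after quantile normalization (0.32, adjusted p = 0.0843).

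Snora43, the downstream snoRNA of Snhg7, ran the other way. It had 3648.8, 3775.8 and 4273.63 normalized counts in myotube samples 1 to 3, against 4889.12, 6931.5 and 7107.81 in myoblast samples 1 to 3. Every myotube sample lay below every myoblast sample, with myotube sample 3 and myoblast sample 1 closest to the gap between the groups. The means were 3899 ± 330.2 in myotubes and 6310 ± 1233 in myoblasts (SD, n = 3 each), 1.6-fold lower in myotubes (log2 change -0.68 ± 0.17 SE, limma adjusted p = 0.0123). The call ended without myoblast sample 3 (log2 change -0.58, adjusted p = 0.0539). Quantile normalization ended it too (-0.65, adjusted p = 0.0887). With equal panel totals the change was -0.85 (adjusted p = 0.00251).

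Snora16a, the upstream snoRNA of Snhg12, had 97906.01, 99110.66 and 98841.17 normalized counts in myotube samples 1 to 3, against 72950.01, 94915.17 and 95221.95 in myoblast samples 1 to 3. All myotube samples stood above all myoblast samples, but the gap to myoblast samples 2 and 3 was small and myoblast sample 1 lay far below. The change missed the threshold, at a log2 change of 0.18 ± 0.14 SE (limma adjusted p = 0.287), with a 95% interval of the fold from 0.905 to 1.42. It was 0.05 without myoblast sample 1 (adjusted p = 0.431), 0.01 once panel totals were made equal and -0.01 after quantile normalization (adjusted p = 0.976 each), so no direction is given for Snora16a.

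Snora44, the downstream snoRNA of Snhg12, had 36642.77, 36947.27 and 35240.38 normalized counts in myotube samples 1 to 3, against 35286.38, 39195.78 and 39760.45 in myoblast samples 1 to 3. The groups overlapped, since myoblast sample 1 lay among the myotube samples. The log2 change was -0.07 ± 0.11 SE (limma adjusted p = 0.604), with a 95% interval of the fold from 0.798 to 1.14. Snora44 passed the test downward with equal panel totals (-0.24, adjusted p = 0.0385). It missed under quantile normalization (-0.31, adjusted p = 0.0607). Levels of 3 of the 4 snoRNAs did not overlap between the groups, all but Snora44, beside 65.7% of the panel.

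**Figure D1:**
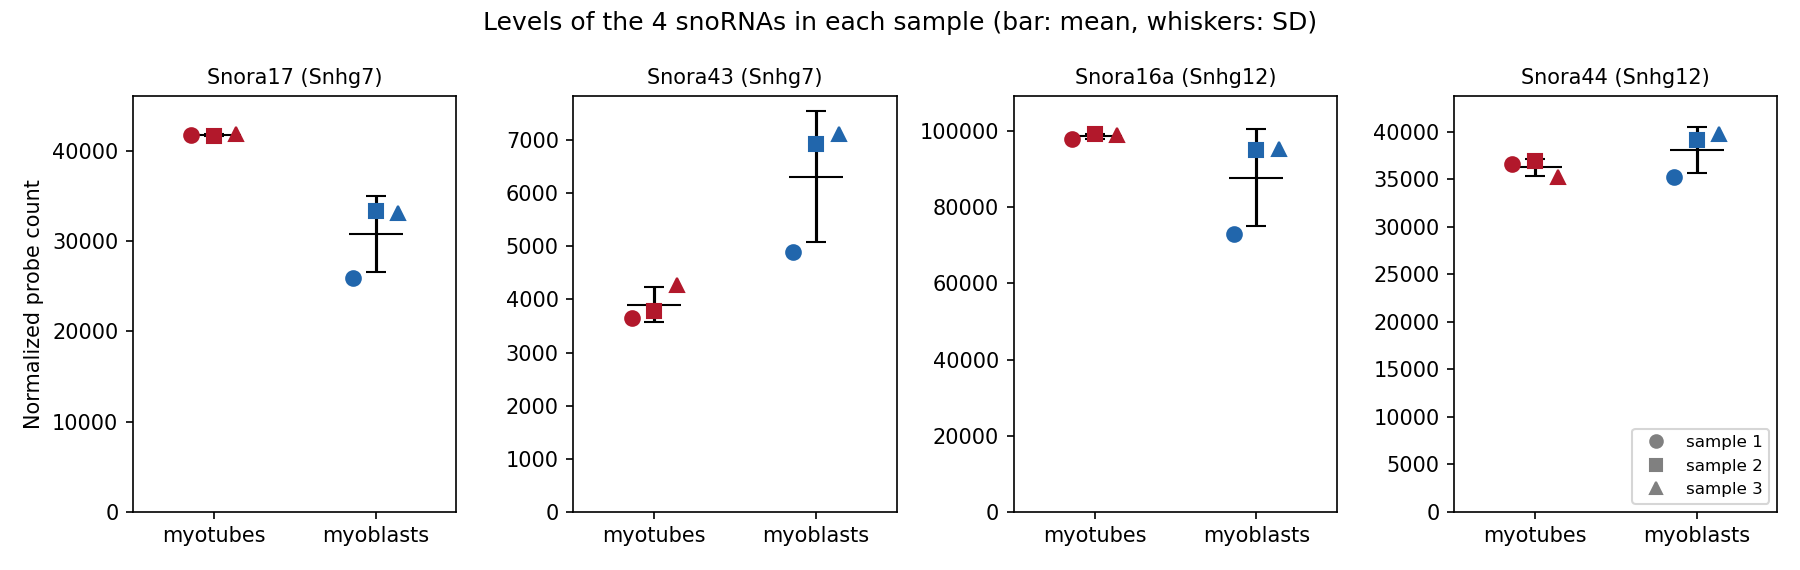
Normalized probe counts (y axis, from 0) of Snora17, Snora43, Snora16a and Snora44 in the 3 myotube samples (red, left) and 3 myoblast samples (blue, right), where symbols mark sample numbers, the horizontal bar is the mean and whiskers are the SD. Snora17 lies near 41712 in all myotube samples, and myoblast sample 1 is the lowest myoblast sample for each of the 4 snoRNAs.

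**Figure D2:**
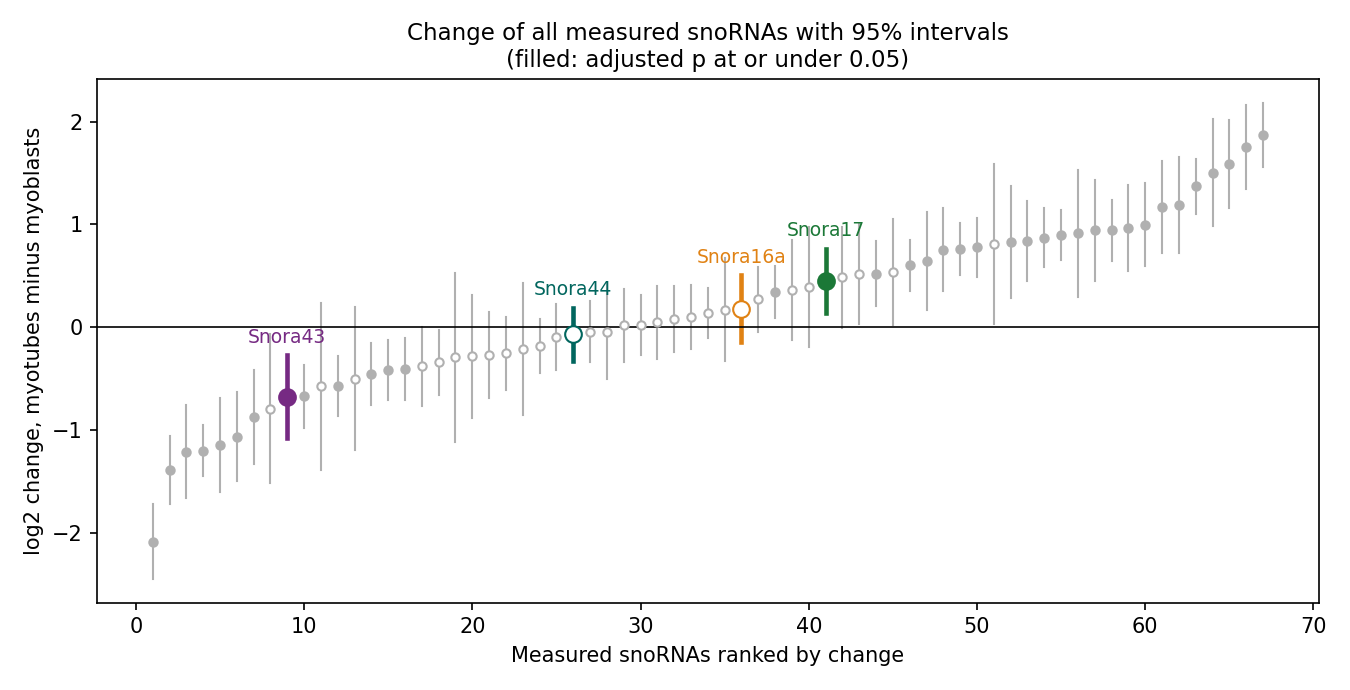
The log2 change between myotubes and myoblasts (y axis, with 95% intervals from limma) of all 67 measured snoRNAs in order of change (x axis), with filled points at an adjusted p at or under 0.05. Snora17 (0.45) and Snora43 (-0.68) are filled and lie on opposite sides of 0, and the intervals of Snora16a and Snora44 cross 0.

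Among the myoblast samples, all 4 snoRNAs were lowest in sample 1. In myoblast sample 1, the log2 level stood apart from the mean of the group by -0.24 for Snora17, -0.35 for Snora43, -0.26 for Snora16a and -0.11 for Snora44. All 4 were below their group mean there, as were 64.2% of panel snoRNAs, whose median deviation was -0.08. Myoblast sample 1 also had the largest step between values, 1.3069, and the lowest implied total count. Its part in the changes was not tested beyond leaving it out, which gave log2 changes of 0.33 for Snora17 (adjusted p = 0.00531), -0.85 for Snora43 (adjusted p = 0.00171), 0.05 for Snora16a and -0.12 for Snora44 (adjusted p = 0.125).

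Ratios taken within a sample do not depend on any factor applied to that sample, so they set the snoRNAs against each other free of the scaling. There were 6 ratios among the 4 snoRNAs, 2 within a host and 4 between hosts. Their differences between states follow from the log2 changes of the 4 snoRNAs given above, so the 6 are not independent results. None of the 6 overlapped between the groups, beside 68.4% of all 2211 ratios of measured snoRNAs, so a lack of overlap does not mark out these 6. The exact two-sided permutation p was 0.1 for each, the smallest that 3 samples against 3 allow, and 0.1 after Benjamini-Hochberg adjustment over the 6, so no ratio could pass 0.05.

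Within Snhg7, the level of Snora17 over that of Snora43 was 11.4, 11 and 9.78 in myotube samples 1 to 3, against 5.3, 4.8 and 4.66 in myoblast samples 1 to 3. The lowest myotube sample stood 0.89 log2 units above the highest myoblast sample, well beyond the spread of 0.12 and 0.10 (SD of the log2 ratio in myotubes and myoblasts). The ratio was 2.18-fold higher in myotubes (difference of log2 ratios 1.13 ± 0.09 SE). Among all pairs of measured snoRNAs, 32.6% differed by at least as much, and the median absolute difference was 0.80.

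Within Snhg12, the level of Snora16a over that of Snora44 was 2.67, 2.68 and 2.81 in myotube samples 1 to 3, against 2.07, 2.42 and 2.4 in myoblast samples 1 to 3. The groups were separate, with myoblast sample 1 lowest and a gap of 0.14 log2 units between the nearest samples. The ratio was 1.19-fold higher in myotubes (difference of log2 ratios 0.25 ± 0.08 SE). When each sample was left out it was smallest without myoblast sample 1, at 0.175, and 83.2% of all pairs differed by at least as much. In both hosts the upstream snoRNA stood higher relative to its downstream neighbour in myotubes, an order seen in 2 hosts only and not tested.

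In the 4 ratios between hosts, Snora17 and Snora43 lay on opposite sides of the Snhg12 snoRNAs, which the order of their log2 changes already fixes. Relative to Snora16a, Snora17 was 1.2-fold higher in myotubes (difference of log2 ratios 0.27 ± 0.01 SE) and relative to Snora44 1.43-fold higher (0.52 ± 0.07 SE). Snora43 was 1.81-fold lower in myotubes relative to Snora16a (-0.86 ± 0.08 SE) and 1.52-fold lower relative to Snora44 (-0.61 ± 0.15 SE). Under quantile normalization the last of these was -0.34. The mean log2 level of the Snhg7 pair minus that of the Snhg12 pair was -2.23 ± 0.08 in myotubes and -2.06 ± 0.10 in myoblasts (SD, n = 3 each). The groups overlapped, and the difference between states was -0.17 ± 0.07 SE (exact two-sided permutation p = 0.2), an average over the higher Snora17 and the lower Snora43.

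The steadiest of the ratios joined snoRNAs of different hosts, a feature singled out after the values were seen. The level of Snora17 over that of Snora16a was 0.426, 0.42 and 0.423 in myotube samples 1 to 3, against 0.355, 0.351 and 0.348 in myoblast samples 1 to 3. The log2 ratio varied by an SD of 0.011 in myotubes and 0.016 in myoblasts, close to its largest counting error of 0.0119. In myoblasts the log2 levels of Snora17 and Snora16a had SDs of 0.206 and 0.221, with sample 1 furthest from the group mean (-0.238 and -0.255). In myotubes these SDs were 0.003 and 0.009, below that of the ratio, so the ratio was steadier than the levels in myoblasts only. Of the 2211 ratios on the panel, 2 had a pooled SD no larger than this one, which is itself among them, and the median pooled SD was 0.271. The ratios within hosts had larger pooled SDs than this one, 0.108 in Snhg7 and 0.094 in Snhg12. They lay among those of the other ratios between hosts (0.085, 0.1 and 0.183). Of all 2211 ratios, 10.8% had a pooled SD no larger than that of the Snhg7 pair, and 7.42% no larger than that of the Snhg12 pair. The difference between states of 0.27 ranged from 0.26 to 0.28 when each sample was left out.

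**Figure D3:**
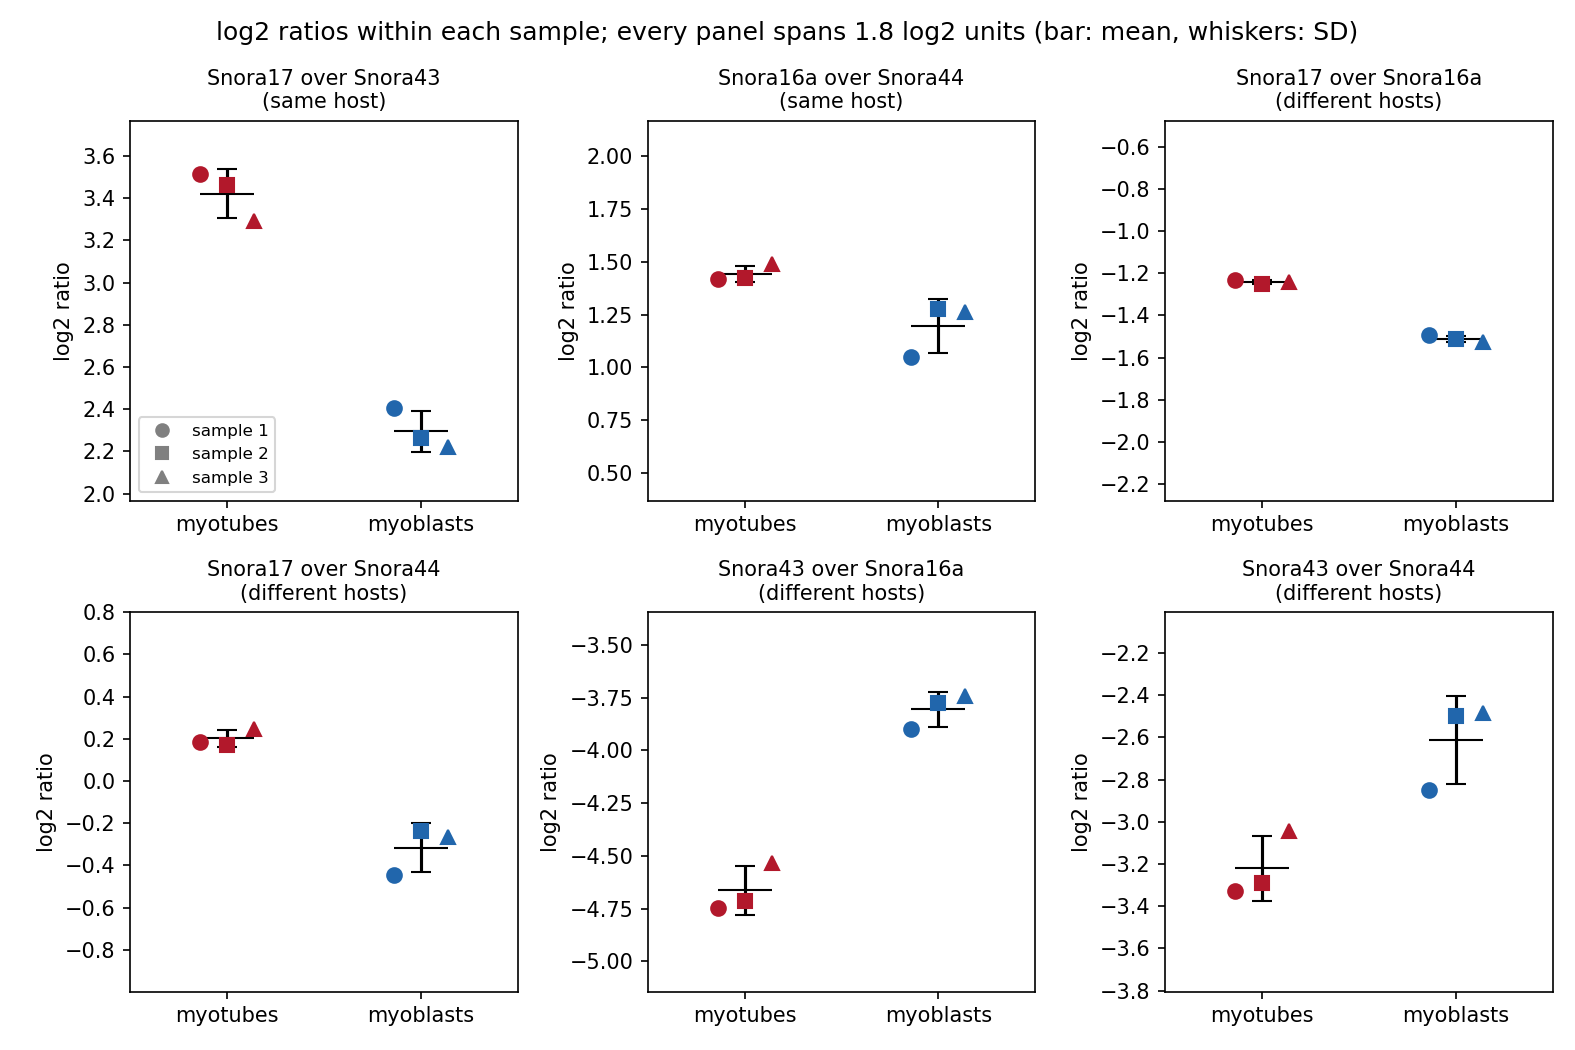
The log2 ratio (y axis, 1.8 units in every panel) of each pair among Snora17, Snora43, Snora16a and Snora44 in myotube (red, left) and myoblast samples (blue, right), where symbols mark sample numbers, bars are means and whiskers are SDs. The groups are separate in all 6 panels, and the points of Snora17 over Snora16a lie closest together within each group.

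**Figure D4:**
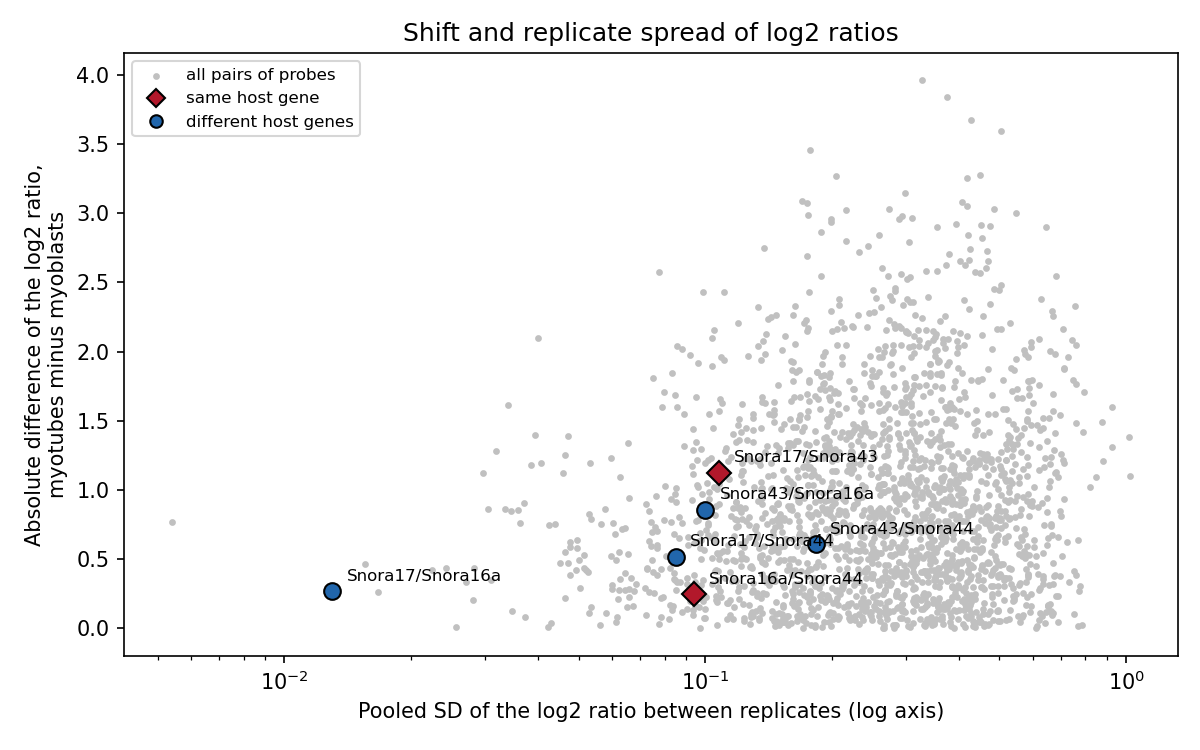
Each grey point is a pair among the 67 measured snoRNAs, placed by the pooled SD of its log2 ratio between replicates (x axis, log scale) and the absolute difference of that ratio between myotubes and myoblasts (y axis). The red diamonds are the pairs within Snhg7 and Snhg12 and the blue circles the pairs between them, and Snora17 over Snora16a lies at the far left with a pooled SD of 0.013.

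Likeness to the other snoRNAs was measured as the root mean square difference between log2 profiles over the 6 samples, after each profile was centred on its mean. By this measure Snora17 lay 0.135 from Snora16a, 0.147 from Snora7a and 0.167 from Snora15, its 3 nearest snoRNAs with a symbol. Snora43, its neighbour in Snhg7, was 52nd of the other 66, at 0.57, where the median over the panel was 0.357. Snora43 itself lay nearest to Snora52 (0.079), of all 66, then to Snora24 (0.157) and Snora73a (0.195). Their log2 changes between states were -0.67, -0.46 and -0.42, a direction that the choice by profile largely fixes, since the profiles contain the difference between states.

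The snoRNAs of Snhg12 had more similar profiles. Snora16a lay 0.052 from Snora26, the nearest of all 66, 0.076 from Snora78 and 0.135 from Snora17, and 0.146 from its host neighbour Snora44. Snora44 lay 0.113 from Snora26, 0.122 from Snora78 and 0.131 from Snora62. For each of the 4, at most 2 probes without a symbol were nearer than the snoRNAs named. All profiles come from the same 6 samples, so likeness includes whatever those samples share, such as the low levels in myoblast sample 1, and the difference between states itself.

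Of 12 snoRNAs listed for non-coding host genes, 8 were measured under a symbol, these 4 and 4 more. In all, 2 were called higher (Snora17 and Snora74a), 3 lower (Snora43, Snora24 and Snora73a) and 3 were not called, with a median log2 change of 0.01 beside 0.14 over the panel. Over the panel 55.2% were called, 35.8% higher and 19.4% lower, so that 5 calls of 8 lie near the background. The calls of Snora24 and Snora73a (limma adjusted p of 0.0191 and 0.0243) were lost without any of myotube samples 1 and 2 and myoblast samples 2 and 3, at adjusted p from 0.0635 to 0.0814 for Snora24 and from 0.0698 to 0.115 for Snora73a. Averaging myotube samples 1 and 2 also ended both calls (0.071 and 0.115), and after quantile normalization their log2 changes were -0.81 and -0.22. The largest of these changes was that of Snora74a in Snhg4, 1.00 ± 0.17 SE on the log2 scale (limma adjusted p = 0.00205). For Snora78, which lies within both Rps2 and Snhg9, the change was 0.08 ± 0.14 SE on the log2 scale (adjusted p = 0.604). Snora61, also in Snhg12, was not measured under a symbol.

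Elsewhere on the panel, 2 pairs of snoRNAs with symbols lie within the span of a common gene. Snora2b and Snora34 lie within Kansl2, and Snora64 and Snora78 within Rps2. Spans were matched without regard to strand, and Snora78 also lies within Snhg9, so Snora64 and Snora78 may not share a precursor. The log2 ratio of Snora2b over Snora34 differed by 0.16 ± 0.20 SE between states, and that of Snora64 over Snora78 by -0.37 ± 0.43 SE. The groups overlapped for both, with pooled SDs of 0.241 and 0.528, against 0.108 for Snora17 over Snora43 and 0.094 for Snora16a over Snora44. When each sample was left out, the first of these differences ran from 0.065 without myoblast sample 2 to 0.328 without myoblast sample 1, and the second from -0.645 without myoblast sample 2 to -0.068 without myoblast sample 1, so neither has a settled size. Whether the Snhg7 ratio shifted more than those ratios was not tested.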

How the data were processed

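Normalized signal values of 67 of 72 probes in 6 samples were read from the table the authors deposited; 5 probes had no values. The values were found to be whole multiples of 1 step per sample, within a tolerance of 0.05 of a count for all 67. The basis of the scaling factor, and any background subtraction, are not stated in the labels. No probe is named as a control. RNA was extracted with Trizol, DNase treatment and RNeasy columns, per the labels' protocols.

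Symbols came from RefSeq (GRCm38.p6) for 34 probes, 33 with values. Host genes are those whose span contains the snoRNA, without regard to strand. The build behind the probes is unstated, so gene coordinates are not printed.

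log2(value + 1) was fitted with limma 3.58.1 (R 4.3.3, lmFit and eBayes) over 67 snoRNAs, two-sided, with Benjamini-Hochberg adjustment. State was the only term. The fit was also run on simulated data with independent normal noise, drawn from the variances that limma had fitted. That noise holds no differences shared within a sample, so the simulation is no check of the calls made here. Ratios used log2 values without a pseudocount, and exact permutation tests over the splits of 6 samples (Python 3.11.15, scipy 1.17.1). Replicates differed beyond counting noise, including myotube samples 1 and 2, the closest (chi-square per degree of freedom 13.4, against 89.1 to 600.4 for the other pairs within a group), and all were kept.

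The members, lists, tests and alternatives were chosen with earlier results of these data known. Named snoRNAs are the 4 members, the other measured snoRNAs of the non-coding host list and the 2 other pairs within a common gene span. The 3 snoRNAs with a symbol nearest to each member are named too. Alternatives were 3 scalings (sample medians, equal panel totals, quantile), pseudocounts of 10 and 0.1, a replicate block, limma with trend and robust settings, only the top 50 snoRNAs by mean, averaging myotube samples 1 and 2, and leaving out each sample.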

Additional observations from a re-analysis of the deposited data

How the results depend on the processing

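The log2 changes of Snora43 and Snora44 kept their sign under every alternative run, as did those of Snora17. The call of Snora17 ended with sample medians subtracted (0.39), under quantile normalization (0.32), with myotube samples 1 and 2 averaged (0.45) and in the fit with a replicate block (0.45, adjusted p = 0.0804); it ranged from 0.33 to 0.51 when samples were left out. That of Snora43 ended under quantile normalization (-0.65) and ranged from -0.85 to -0.58 when samples were left out. Snora44 gained a call with equal panel totals (-0.24), and Snora16a turned to -0.006 under quantile normalization. Snora78 turned to -0.092 with equal panel totals, and ranged from -0.027 (without myoblast sample 1) to 0.168 when samples were left out. Equal panel totals and quantile normalization moved the panel's changes by a median of -0.18 (log2) each, and from 29 to 42 snoRNAs were called when samples were left out. The calls split into 24 higher and 13 lower, but into 22 and 20 with equal panel totals and 20 and 17 under quantile normalization.

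Quantile normalization was the only scaling able to move ratios. It gave differences of 0.97 for Snora17 over Snora43, 0.33 for Snora17 over Snora16a, 0.63 for Snora17 over Snora44, -0.65 for Snora43 over Snora16a, -0.34 for Snora43 over Snora44 and -0.007 for the Snhg7 pair over the Snhg12 pair; the cause was not tested. The deviations of same-numbered samples from their group means had correlations of 0.44, -0.74 and -0.02 for samples 1 to 3. The labels state no pairing, and 3 such correlations cannot exclude it. The replicate block gave 38 calls in place of 37, of which 32 were shared, and the same SE, 0.226, for each of the 4 snoRNAs. Besides Snora17, Snora24 and Snora73a lost their calls under it (adjusted p of 0.0772 and 0.108), and the other 3 of the 4 snoRNAs kept their side of the threshold. A count model on the implied counts was planned and not run, because the table holds scaled values. The counting error of the 4 snoRNAs, at most 0.0252 on the log2 scale, was below the SE of each change.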
